A study of Komagataella pastoris with 12 samples.

Results

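The strain by temperature interaction was taken for each transcript as the heat response of the thermotolerant strain G14 minus the heat response of its parent. A heat response is the mean log2(FPKM + 1) at 37 °C minus that at 30 °C within a strain, so the interaction is (G14_37 - G14_30) - (Parent_37 - Parent_30), and it is called the difference in heat response here. FPKM are fragment counts scaled by transcript length and by a factor for each library. A median-of-ratios factor, the median ratio of a library to the geometric mean over libraries, was 0.998593 in all 12 libraries. The deposited values were thus already level between libraries by that measure. The 1 added before the logarithm makes the change of genes of low expression look smaller. All 12 libraries of the series and all 5080 transcripts of the deposited table entered, 5040 of them annotated genes and the other 40 being assembled by the authors from regions without annotated genes. A description of function was given for 3087 transcripts, mostly by likeness to *Saccharomyces cerevisiae* genes, and functions are named from it.

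The cells were *Komagataella phaffii*, a methylotrophic yeast used to make recombinant proteins, which the labels name *Komagataella pastoris*. In G14_37 and G14_30 they were the evolved strain G14, a single isolate obtained from the parent by mutagenesis with an atmospheric, room temperature plasma followed by stepwise adaptation to higher temperatures, so that every strain difference compares 1 clone with its ancestor. In Parent_37 and Parent_30 they were that ancestor, labelled wild type, a recombinant GS115 that already carries a lipase transgene. Both strains grew in YPD, a rich glucose medium, to the logarithmic phase at 37 °C, labelled high temperature, or at 30 °C, labelled normal temperature, with 3 biological replicates per group. RNA was measured in bulk, so fewer cells of a given state and less RNA per cell cannot be told apart.

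When a yeast cell is heated, proteins lose their fold, and the heat shock transcription factor raises the genes of chaperones, the proteins that refold or hold their damaged clients. Unfolded protein in the endoplasmic reticulum (ER) is sensed separately and raises ER chaperones through a bZIP transcription factor, a route called the unfolded protein response. In *S. cerevisiae*, stress of many kinds also lowers the genes of ribosomal proteins while genes of stress defence rise, and a lasting stress is met by changes in energy metabolism, the cell wall and protein turnover. The comparison asks which of these temperature responses both strains share, and which differ between them.

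The number of fragments on transcripts ranged over the libraries from 13428637 to 22047040, and a single fragment on a transcript of 1 kb stood for 0.0417 to 0.0822 FPKM depending on the library. Replicate 1 of G14_37 stood apart from its group. Pearson's r across transcripts was 0.880 and 0.863 between it and replicates 2 and 3, against 0.959 between those 2 libraries and 0.977 to 0.996 within the other groups. Counts that move by over 1.5 times and calls that are lost or made without this library are given both ways.

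To be called, a difference in heat response needed an absolute log2 value over 1 and an adjusted p under 0.05 in limma, with Benjamini-Hochberg adjustment over all 5080 transcripts. Values after ± are standard errors from that fit, with 3 libraries in each group. It was called lower in G14 for 564 transcripts, which is 11.1% of those tested, and higher for 219, which is 4.31%, so that 783 (15.4%) differed in either direction. The adjusted p alone was under 0.05 for 1796 transcripts (35.4%), and limma treat, which tests against an absolute log2 value of 1 directly, called 113 lower and 1 higher. The median difference over all transcripts was 0.00, and it was 0.10 when each library was scaled to the same sum. That scaling called 467 transcripts lower and 288 higher, so 38.1% of its calls were higher, against 28.0% in the values as deposited. Limma voom on fragments recovered from the FPKM called 417 lower and 375 higher (47.3%), with a median of 0.20. It scaled each library by its total of fragments alone, so that both the scaling and the test differed from the main fit. Leaving out replicate 1 of G14_37 gave 619 lower and 251 higher, of which 515 and 184 were also called with it.

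The 2 heat responses behind the difference were of unequal size. In G14, 113 transcripts were called higher at 37 °C (2.22%) and 79 lower (1.56%), while in the parent 712 were called higher (14%) and 384 lower (7.56%). The counts for G14 depended on single libraries, being 62 and 42 without replicate 1 of G14_37, 246 and 177 without replicate 3 of G14_37, and 70 and 50 without replicate 3 of G14_30. Since the parent's response is part of the difference, these counts and the difference share libraries and are set side by side only. Among the 564 transcripts whose difference was called lower, Parent_37 had the highest of the 4 group means in 533 (94.5%), as it had in 34% of all transcripts. For the 219 called higher, Parent_37 had the lowest group mean in 214 (97.7%), as in 35.5% of all transcripts. The calls are made from these same group means, so both shares are partly set by the selection and only describe the called transcripts.

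Each transcript was then put in a class from its 3 tests. A response was lost when the parent's was called, G14's was not, and the difference was called against the parent's. By this rule the parent's response was lost in 591 transcripts (11.6%), of which 430 (8.46%) rose and 161 (3.17%) fell in the parent. It was reversed in 5 (0.0984%), with both responses called in opposite directions. It was kept in 87 (1.71%), with both called in the same direction and the difference not called, and gained in 20 (0.394%), where G14's response was called and the parent's was not. A further 21 (0.413%) were reduced, called in the same direction in both strains with a called difference against it, and 146 (2.87%) were opposed, with a called difference and neither response called. The response of the parent was called in another 392 transcripts (7.72%) and that of G14 in another 59 (1.16%) with no call of the difference, and these are undecided. Without replicate 1 of G14_37 the numbers were 706 lost, 2 reversed, 55 kept and 11 gained, of which 561, 2, 48 and 8 were in the same class with it. Without replicate 3 of G14_37 they were 548 lost, 19 reversed, 151 kept and 79 gained, without replicate 2 of G14_37 9 were reversed, and without replicate 3 of G14_30 12 were gained.

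**Figure D1:**
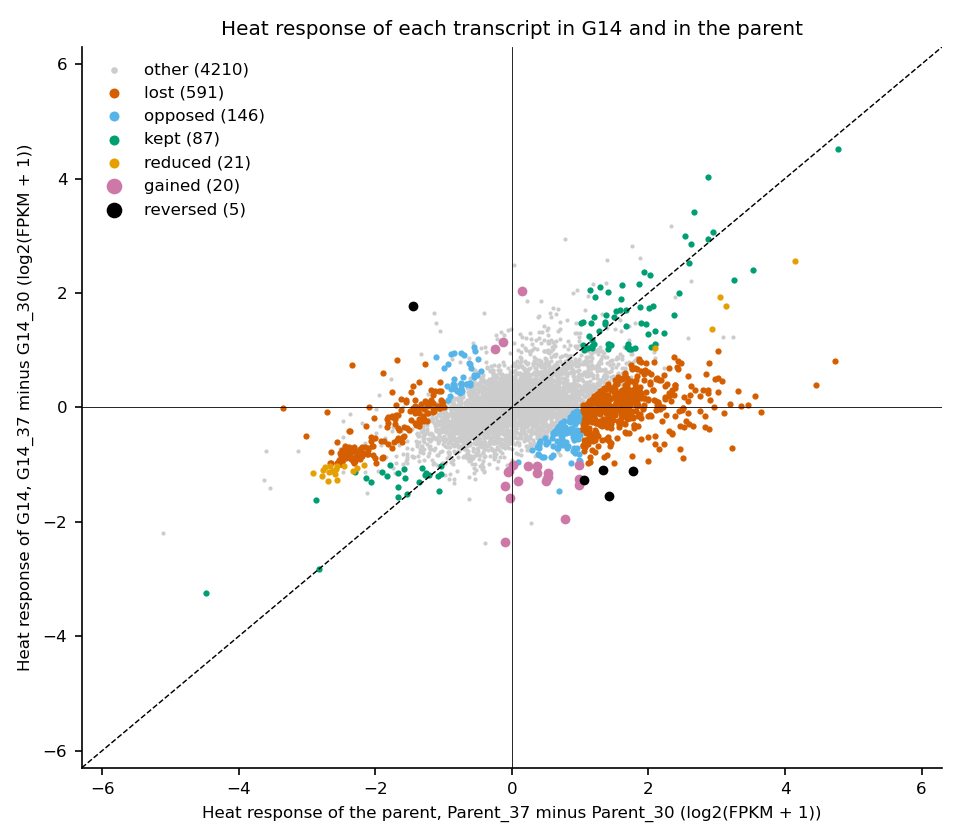
Heat response of every transcript in the parent (x axis) and in G14 (y axis), both in log2(FPKM + 1), coloured by class. Points on the dashed line responded alike in both strains, and the 591 lost transcripts lie along the horizontal axis, to the right where the parent rose and to the left where it fell.

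A lost call says that G14's response missed the threshold of size, the adjusted p or both, so its size was looked at as well. Some lost responses of G14 passed the adjusted p and missed only on size. The ribosomal protein L5, with a response of -0.97 in G14 (adjusted p = 0.0093 in limma), was 1 of them. The class rule itself uses that response and the difference. A small response of G14 is therefore partly fixed by the rule, and the sizes below describe the class without adding support to it. Among the 430 transcripts that rose in the parent and were lost, the median log2 response was 0.02 in G14 and 1.61 in the parent. The absolute response of G14 was under 0.5 in 352 of them (81.9%), and its 95% interval lay within -1 to 1 in 368 (85.6%). Median FPKM over these transcripts were 47.3 in G14_37, 46.0 in G14_30, 194 in Parent_37 and 56.5 in Parent_30. Among the 161 that fell in the parent and were lost, the median response was -0.40 in G14 and -1.83 in the parent, and G14's response was below 0 in 127 (78.9%). These were transcripts of high expression, with median FPKM of 951 in G14_37, 1265 in G14_30, 363 in Parent_37 and 1188 in Parent_30. The lost falls were mostly smaller falls in G14, while in the lost rises G14's response was spread around 0.

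The largest lost rises among genes with a description were in genes of signalling, transport, mating and biotin synthesis. The serine/threonine MAP kinase (PAS_chr3_0895, chr3:1742705-1743985), a member of the kinase cascades that carry outside signals to the nucleus, had 35.2, 45.1 and 52.6 FPKM in G14_37, 74.6, 72.6 and 68.6 FPKM in G14_30, 1305, 1739.8 and 1557 FPKM in Parent_37, and 186, 152 and 151 FPKM in Parent_30. All Parent_37 libraries lay above the other 9 libraries, and the G14_37 libraries were the lowest. Its log2 heat response was -0.70 in G14 and 3.22 in the parent, a difference of -3.93 ± 0.22 (adjusted p = 2.3e-06). A cytoplasmic component of the pathway that exports charged tRNA from the nucleus (PAS_chr4_0200, chr4:406766-408994) had 31.3, 32.5 and 40.9 FPKM in G14_37, 33.8, 34.8 and 33.9 FPKM in G14_30, 775, 839 and 818 FPKM in Parent_37, and 80.6, 78.3 and 75.2 FPKM in Parent_30. The G14 groups overlapped and lay below Parent_30, and Parent_37 stood about an order of magnitude above Parent_30. The tRNA export component's log2 heat response was 0.02 in G14 and 3.36 in the parent, a difference of -3.34 ± 0.14 (adjusted p = 7.0e-07).

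The silenced copy of ALPHA2 at HML (PAS_chr4_0878, chr4:1648150-1648635), a store of mating type information that is normally kept silent, had 138, 154 and 164 FPKM in G14_37, 81.8, 90.1 and 85.2 FPKM in G14_30, 500.1, 715 and 569.7 FPKM in Parent_37, and 22.1, 23.2 and 18.2 FPKM in Parent_30. No groups overlapped, and the order ran from Parent_37 through G14_37 and G14_30 down to Parent_30. Responses of this gene were 0.82 in G14 and 4.74 in the parent, a difference of -3.92 ± 0.20 (adjusted p = 1.2e-06) on the log2 scale. Such a gene can share sequence with the copy at the mating type locus, so which copy its fragments came from is uncertain. An effector of the Rab GTPase Sec4p (PAS_chr1-4_0066, chr1:1532069-1535155), which in *S. cerevisiae* helps secretory vesicles fuse with the plasma membrane, had 53.3, 42.9 and 43.1 FPKM in G14_37, 38.4, 38.8 and 35.4 FPKM in G14_30, 358, 725 and 348 FPKM in Parent_37, and 47.4, 45.0 and 40.6 FPKM in Parent_30. Parent_37 was the only high group, with replicate 2 at the top of it, and G14_37 overlapped Parent_30. For the Sec4p effector the log2 response was 0.29 in G14 and 3.31 in the parent, a difference of -3.02 ± 0.33 (adjusted p = 8.9e-05).

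A serine-threonine kinase of a glucose-sensing system (PAS_chr3_0873, chr3:1704142-1706145) had 19.0, 27.8 and 29.7 FPKM in G14_37, 23.3, 24.6 and 23.9 FPKM in G14_30, 225, 456 and 179.9 FPKM in Parent_37, and 27.1, 28.9 and 27.9 FPKM in Parent_30. All libraries outside Parent_37 lay within 19.0 to 29.7 FPKM, with Parent_30 above G14_30 and G14_37 overlapping both. The glucose-sensing kinase had a log2 heat response of 0.06 in G14 and 3.20 in the parent, a difference of -3.13 ± 0.40 (adjusted p = 0.00023). Biotin synthase (PAS_chr1-3_0052, chr1:95232-96422), which makes the vitamin biotin from dethiobiotin, had 43.3, 51.2 and 38.6 FPKM in G14_37, 28.8, 32.9 and 34.0 FPKM in G14_30, 213, 219.6 and 203 FPKM in Parent_37, and 25.8, 22.9 and 24.2 FPKM in Parent_30. Its 4 groups did not overlap, and G14_37 lay above G14_30. The rise was smaller than the threshold in G14, with log2 responses of 0.46 in G14 and 3.07 in the parent, a difference of -2.61 ± 0.15 (adjusted p = 3.0e-06).

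Among the largest lost falls with a description, 2 were glycolytic enzymes, 3 were ribosomal proteins and 1 was described as a G-protein subunit. The 3-phosphoglycerate kinase (PAS_chr1-4_0292, chr1:1943024-1944274), which makes ATP in glycolysis, had 1111, 7474 and 1755 FPKM in G14_37, 3242, 3896 and 1161 FPKM in G14_30, 294, 218 and 363 FPKM in Parent_37, and 3569, 3017 and 2314 FPKM in Parent_30. Parent_37 lay below every other library, while the G14_37 libraries spread over more than the range of the 6 libraries at 30 °C. With log2 responses of 0.00 in G14 and -3.35 in the parent, a difference of 3.35 ± 0.90 (adjusted p = 0.015), it had the largest positive difference in the table. The tetrameric phosphoglycerate mutase (PAS_chr3_0826, chr3:1599170-1599916), the next enzyme of the pathway, had 731, 5690.1 and 1382 FPKM in G14_37, 3190.3, 3701 and 1400.3 FPKM in G14_30, 618, 531 and 581 FPKM in Parent_37, and 5800.1, 4645 and 3793 FPKM in Parent_30. Replicate 1 of G14_37 lay near the Parent_37 libraries and replicate 2 among those of Parent_30. The mutase's log2 response was -0.51 in G14 and -3.02 in the parent, a difference of 2.51 ± 0.87 (adjusted p = 0.044), and the call was lost when any library of G14_30, Parent_37 or Parent_30 was left out, with a difference of 1.68 to 3.16 over all libraries left out.

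The gene described as a G-protein beta subunit for Gpa2p (PAS_chr1-4_0063, chr1:1527782-1529067), a glucose-sensing G-protein of *S. cerevisiae*, had 879, 1337 and 1383 FPKM in G14_37, 2229, 2088 and 2650.3 FPKM in G14_30, 413, 300.1 and 473 FPKM in Parent_37, and 2479, 2405 and 2554 FPKM in Parent_30. The 6 libraries at 30 °C overlapped, G14_37 lay below them, and Parent_37 lay below G14_37. Log2 responses of this gene were -0.97 in G14 and -2.67 in the parent, a difference of 1.70 ± 0.30 (adjusted p = 0.0017). Only its description places it in signalling, and its responses were close to those of the ribosomal protein L5, given next. The 60S ribosomal protein L5 (PAS_chr1-1_0345, chr1:1204380-1205273), which carries the small ribosomal RNA of the large subunit, had 945, 1176 and 1247 FPKM in G14_37, 2086, 2048 and 2443 FPKM in G14_30, 404, 283 and 509 FPKM in Parent_37, and 2357, 2426 and 2542 FPKM in Parent_30. L5 showed the same order, with log2 responses of -0.97 in G14 and -2.65 in the parent, a difference of 1.68 ± 0.28 (adjusted p = 0.0013). The 40S ribosomal protein S26 (PAS_chr2-1_0362, chr2:669261-669620) had 1729.6, 2856 and 2616 FPKM in G14_37, 3827, 3809 and 4514 FPKM in G14_30, 734, 526 and 874 FPKM in Parent_37, and 4399.9, 4251 and 4489 FPKM in Parent_30. S26 was lower at 37 °C in both strains without overlap, and the log2 response was -0.78 in G14 and -2.65 in the parent, a difference of 1.87 ± 0.32 (adjusted p = 0.0014). The 60S ribosomal protein L15 (PAS_chr2-1_0658, chr2:1244315-1244929) responded by -0.98 in G14 and -2.56 in the parent, a difference of 1.59 ± 0.32 (adjusted p = 0.0036) on the log2 scale.

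**Figure D2:**
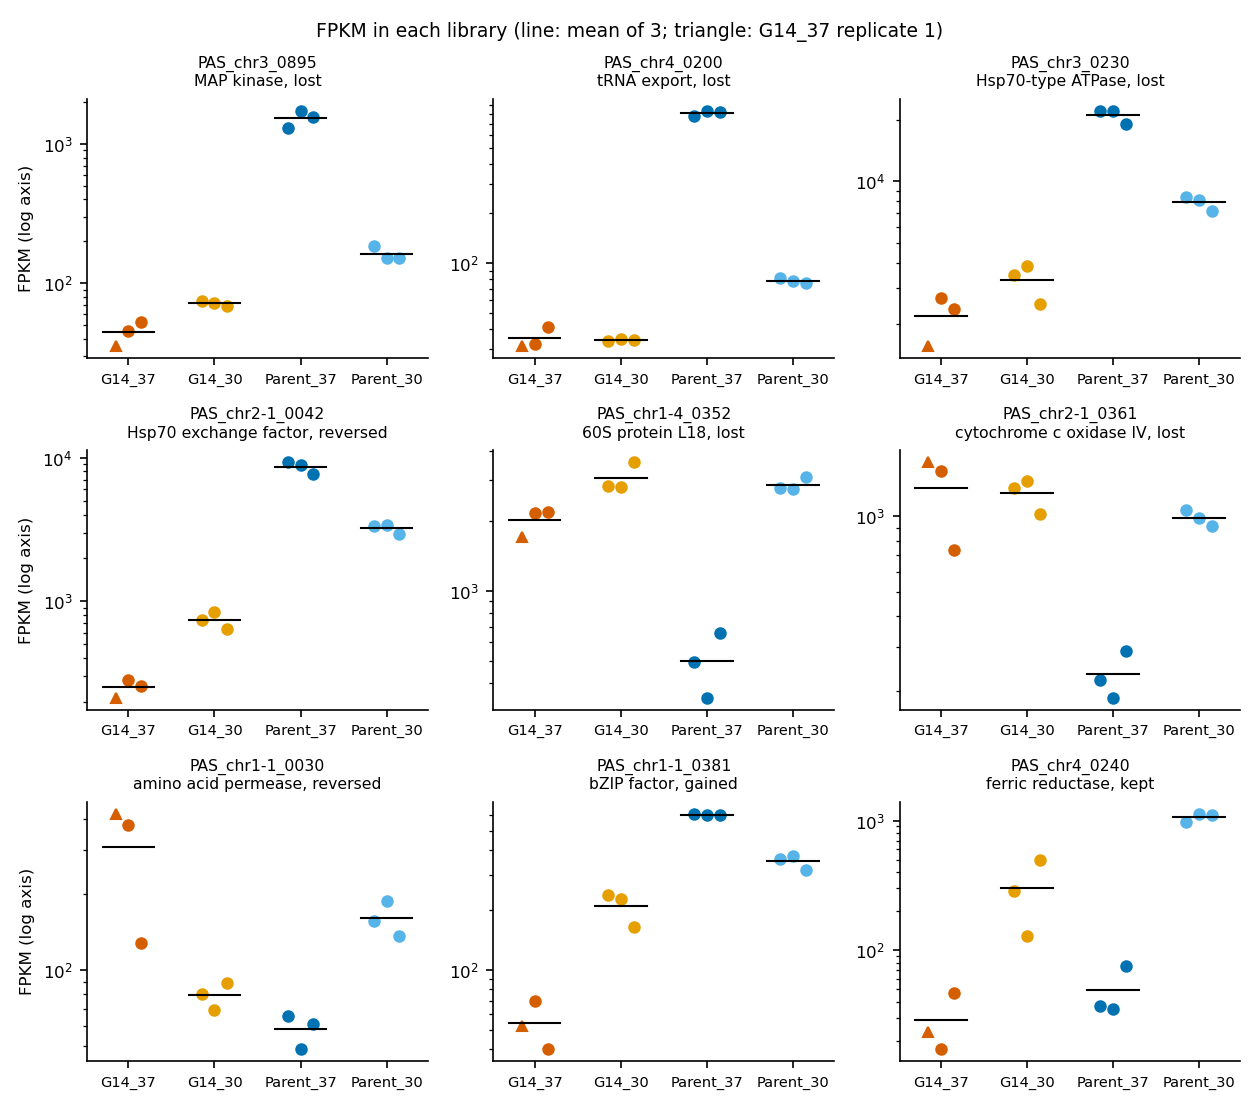
FPKM of 9 genes in each of the 12 libraries on a logarithmic axis, with a line at the mean of each group of 3 and replicate 1 of G14_37 drawn as a triangle. In the MAP kinase panel Parent_37 lies at 1305 to 1740 FPKM and all other libraries at 186 FPKM or less, while the ferric reductase falls at 37 °C in both strains.

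Of the 5 reversed transcripts, 4 (0.0787%) rose in the parent and fell in G14. They were genes of an Hsp70 exchange factor, an ER ATPase, calnexin and a nuclear protein. Of all 5, 3 stayed reversed with each library scaled to the same sum, and 3 by limma voom. The Hsp70 nucleotide exchange factor (PAS_chr2-1_0042, chr2:74120-74983, named FES1 by the study), which lets Hsp70 release its client proteins, had 213, 285 and 257 FPKM in G14_37, 744, 840.4 and 641 FPKM in G14_30, 9298, 8886 and 7724 FPKM in Parent_37, and 3329, 3381 and 2955 FPKM in Parent_30. No groups overlapped, and the order ran from Parent_37 through Parent_30 and G14_30 down to G14_37. The exchange factor's log2 heat response was -1.56 in G14 and 1.42 in the parent, a difference of -2.98 ± 0.22 (adjusted p = 1.1e-05). The ER ATPase that imports and folds proteins (PAS_chr2-1_0140, chr2:264385-266421, KAR2 of the study), the main Hsp70 of the ER, had 332, 615 and 842 FPKM in G14_37, 1390.4, 1342 and 1306 FPKM in G14_30, 9124, 9942 and 7990.1 FPKM in Parent_37, and 4374, 4508 and 4047 FPKM in Parent_30. Its groups stood in the same order with no overlap, and its log2 response was -1.27 in G14 and 1.06 in the parent, a difference of -2.33 ± 0.39 (adjusted p = 0.0012).

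Calnexin (PAS_chr2-1_0322, chr2:602354-604051), an ER chaperone of glycoproteins, had 205, 279.9 and 418 FPKM in G14_37, 650.3, 599 and 600.1 FPKM in G14_30, 2819, 2956 and 2655 FPKM in Parent_37, and 1177, 1095 and 1057 FPKM in Parent_30. Again G14_37 was lowest and Parent_37 highest, and the log2 response was -1.09 in G14 and 1.34 in the parent, a difference of -2.43 ± 0.29 (adjusted p = 0.00018). A nuclear protein with a SET domain (PAS_chr2-1_0517, chr2:952808-954424), the fold of many protein methyltransferases, had 32.2, 56.5 and 68.1 FPKM in G14_37, 88.0, 114 and 129.7 FPKM in G14_30, 522, 531 and 529 FPKM in Parent_37, and 145, 163 and 154 FPKM in Parent_30. No groups overlapped, and the SET domain gene responded by -1.11 in G14 and 1.77 in the parent, a difference of -2.88 ± 0.33 (adjusted p = 0.00011). Without replicate 1 of G14_37, G14's falls in the ER ATPase, calnexin and the SET domain gene no longer passed the threshold and the 3 genes counted as lost, with differences of -1.96, -2.19 and -2.58, while the exchange factor stayed reversed at -2.86.

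The 1 transcript (0.0197%) reversed the other way was a general amino acid permease (PAS_chr1-1_0030, chr1:594551-596305), which takes up most amino acids from the medium. It had 419.9, 378 and 129 FPKM in G14_37, 80.4, 69.5 and 88.9 FPKM in G14_30, 65.8, 48.4 and 60.9 FPKM in Parent_37, and 157, 188 and 137 FPKM in Parent_30. Replicate 3 of G14_37 lay below the 30 °C libraries of the parent, and the other 2 libraries of that group lay above all others. The permease had log2 responses of 1.78 in G14 and -1.45 in the parent, a difference of 3.22 ± 0.51 (adjusted p = 0.00092), and it stayed reversed without replicate 1 of G14_37, at 2.91.

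Of the 20 gained transcripts, 17 (0.335%) fell in G14 and 3 (0.0591%) rose, and the 3 that rose had no description of function. Which transcripts were gained depended on the scaling. With each library scaled to the same sum 20 were gained, but only 9 were among those gained here. Limma voom gained 28, with 13 among them. The bZIP transcription factor of the unfolded protein response (PAS_chr1-1_0381, chr1:1268884-1269879), an ATF/CREB homologue, had 52.5, 69.7 and 40.01 FPKM in G14_37, 237, 228 and 164 FPKM in G14_30, 610.2, 600.1 and 598 FPKM in Parent_37, and 362, 375 and 318 FPKM in Parent_30. No groups overlapped, and G14_37 lay lowest. The bZIP factor's log2 heat response was -1.96 in G14 and 0.78 in the parent, a difference of -2.73 ± 0.27 (adjusted p = 5.0e-05). A cyclophilin, an enzyme that turns peptide bonds at proline (PAS_chr3_0567, chr3:1078075-1079160), had 204, 489 and 702 FPKM in G14_37, 1004, 1129 and 1037 FPKM in G14_30, 7292, 7553 and 6830.3 FPKM in Parent_37, and 3693, 3829.9 and 3416 FPKM in Parent_30. It stood just inside the class, since the parent's response was 0.99 on the log2 scale, G14's was -1.35 and the difference -2.34 ± 0.49 (adjusted p = 0.0041). A chaperone that regulates Hsp90 and Hsp70 (PAS_chr2-2_0066, chr2:2255302-2256510) had 309.7, 591 and 791 FPKM in G14_37, 1145, 1274 and 1349.9 FPKM in G14_30, 6576, 5907 and 6234 FPKM in Parent_37, and 3124, 3272 and 3025 FPKM in Parent_30. The regulator's responses of -1.25 in G14 and 0.99 in the parent, a difference of -2.24 ± 0.38 (adjusted p = 0.0015) were also close to the threshold in the parent, and without replicate 1 of G14_37 both it and the cyclophilin counted as opposed.

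The other gained genes named by rule were a plasma membrane protein of porphyrin uptake and heme efflux, a pheromone response factor and a nuclear importin. The heme protein (PAS_chr2-1_0270, chr2:508992-509882) had 4.92, 6.74 and 7.33 FPKM in G14_37, 16.1, 15.3 and 16.0 FPKM in G14_30, 23.5, 28.2 and 23.5 FPKM in Parent_37, and 18.8, 16.1 and 16.4 FPKM in Parent_30. G14_37 was the lowest group and Parent_37 the highest, the 30 °C groups overlapped, and the log2 response was -1.21 in G14 and 0.53 in the parent, a difference of -1.74 ± 0.20 (adjusted p = 0.00012). The transcription factor required for gene regulation by pheromones (PAS_chr4_0468, chr4:914469-915560) had 9.54, 24.0 and 13.5 FPKM in G14_37, 61.9, 50.0 and 30.6 FPKM in G14_30, 21.2, 18.3 and 19.6 FPKM in Parent_37, and 23.0, 18.7 and 19.0 FPKM in Parent_30. Here the parent's 6 libraries lay within 18.3 to 23.0 FPKM while G14_30 stood above them, and the log2 response was -1.58 in G14 and -0.03 in the parent, a difference of -1.54 ± 0.43 (adjusted p = 0.017). The importin (PAS_chr1-3_0237, chr1:443467-446820), which carries proteins through the nuclear pore, had 71.3, 88.2 and 80.3 FPKM in G14_37, 192, 207 and 192 FPKM in G14_30, 345, 259 and 371 FPKM in Parent_37, and 306, 319 and 283 FPKM in Parent_30. G14_37 was the lowest group without overlap, and the importin's log2 response was -1.29 in G14 and 0.09 in the parent, a difference of -1.38 ± 0.19 (adjusted p = 0.00045). These 3 stayed gained without replicate 1 of G14_37.

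A response was kept in 87 transcripts, 63 (1.24%) of them higher and 24 (0.472%) lower at 37 °C in both strains. A kept call rests on a difference that was not called, by its size or its adjusted p, which does not show equal responses. The 95% interval of the difference lay within -1 to 1 in 22 of the 87. The ferric reductase (PAS_chr4_0240, chr4:486364-488484), which frees iron from siderophores before uptake, had 23.6, 17.3 and 46.5 FPKM in G14_37, 285, 128 and 494 FPKM in G14_30, 37.5, 35.5 and 75.3 FPKM in Parent_37, and 975, 1133 and 1095 FPKM in Parent_30. It fell without overlap in both strains, with log2 responses of -3.25 in G14 and -4.49 in the parent, and the difference of 1.24 had a 95% interval of -0.25 to 2.73. A CCCH zinc finger protein (PAS_chr4_0329, chr4:675506-676240) had log2 responses of -2.83 in G14 and -2.82 in the parent, and its difference of -0.01 had an interval of -1.90 to 1.89. S-adenosylmethionine synthetase (PAS_chr3_0876, chr3:1709987-1711141), which makes the methyl donor of the cell, had responses of -1.57 in G14 and -1.66 in the parent and an interval of -0.65 to 0.83 for the difference. The 60S protein L9 (PAS_chr1-1_0382, chr1:1271378-1271953) had responses of -1.61 in G14 and -2.87 in the parent, and its difference of 1.26 ± 0.49 (adjusted p = 0.067) was called without replicate 1 of G14_37, at 1.72 (adjusted p = 0.0013).

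The largest kept rises were metabolic and regulatory. Inositol 1-phosphate synthase (PAS_chr2-2_0113, chr2:2168202-2169779), the source of inositol for phospholipids, had 756, 140.3 and 8.28 FPKM in G14_37, 3.74, 6.02 and 5.95 FPKM in G14_30, 110.4, 160.2 and 87.7 FPKM in Parent_37, and 17.3, 13.1 and 14.5 FPKM in Parent_30. The G14_37 libraries spread widely, so that the log2 responses of 4.02 in G14 and 2.88 in the parent left an interval of -2.43 to 4.72 for the difference. A protein similar to the gluconate transport inducer gti1+ of *Schizosaccharomyces pombe* (PAS_chr3_0251, chr3:504046-505203) rose by 3.07 in G14 and 2.95 in the parent. Thiazole synthase of thiamin synthesis (PAS_chr3_0648, chr3:1236581-1237618) rose by 2.53 in G14 and 2.59 in the parent, and a kinase expressed at the end of meiosis (PAS_chr1-1_0365, chr1:1239617-1240978) by 2.01 in G14 and 2.45 in the parent. Of these 4 rises, the meiotic kinase had the narrowest interval of the difference, at -1.10 to 0.21.

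The most negative difference over all transcripts belonged to an assembled transcript at chr2:1136346-1136830, which has no annotation. It had 1.02, 0.208 and 0.526 FPKM in G14_37, 0.143, 0 and 0.452 FPKM in G14_30, 32.0, 77.6 and 39.1 FPKM in Parent_37, and 0.964, 0.678 and 2.04 FPKM in Parent_30. Only Parent_37 lay above 2.04 FPKM, and the log2 response was 0.39 in G14 and 4.45 in the parent, a difference of -4.06 ± 0.52 (adjusted p = 0.00024). A second assembled transcript, at chr2:10-261, had a difference of -3.42 ± 0.71 (adjusted p = 0.0041), and the hypothetical protein gene PAS_chr1-3_0039, chr1:70518-71642 had -3.74 ± 0.28 (adjusted p = 1.1e-05). Among the most positive differences, a mitochondrial alcohol dehydrogenase (PAS_chr2-1_0472, chr2:875193-876245) had 4444, 14327 and 2652 FPKM in G14_37, 5708, 6838 and 913 FPKM in G14_30, 1192, 1306 and 1015 FPKM in Parent_37, and 7614, 5913 and 4579.6 FPKM in Parent_30. The G14 groups overlapped each other and those of the parent did not. The dehydrogenase's log2 response was 0.75 in G14 and -2.34 in the parent, a difference of 3.09 ± 1.05 (adjusted p = 0.04), and the call was lost when replicate 3 of G14_30, replicate 2 of G14_37 or any library of the parent was left out. The differences of a Dog2p-like phosphatase (PAS_chr2-1_0016, chr2:32010-32696), 2.93 ± 1.70 (adjusted p = 0.21), and of PAS_chr4_0624, a protein needed for transcriptional induction, 2.84 ± 1.05 (adjusted p = 0.057), did not pass the test. Both were called without replicate 1 of G14_37, at 4.53 (adjusted p = 0.0068) for the phosphatase and 3.43 (adjusted p = 0.017) for PAS_chr4_0624.

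The functions were compared through 28 lists drawn from the gene descriptions. The share of a list called is read beside 11.1% lower and 4.31% higher over all transcripts. The lists of cytosolic ribosomal proteins, of the respiratory chain and of trehalose and glycogen held the largest shares of higher calls, and those of chaperones, MAP kinase signalling, the cell wall and meiosis the largest shares of lower calls. No test of a list was made. Of each list, the 2 called members with the largest differences are named by rule. P0, L22, the Hsp40 and ribosome-associated chaperones, 3 proteasome members, pyruvate kinase, enolase, alcohol oxidase, the trehalose subunit, the copper transporter, the glucan and chitin synthases and 2 MAP kinase kinases were chosen after their values were seen.

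**Figure D3:**
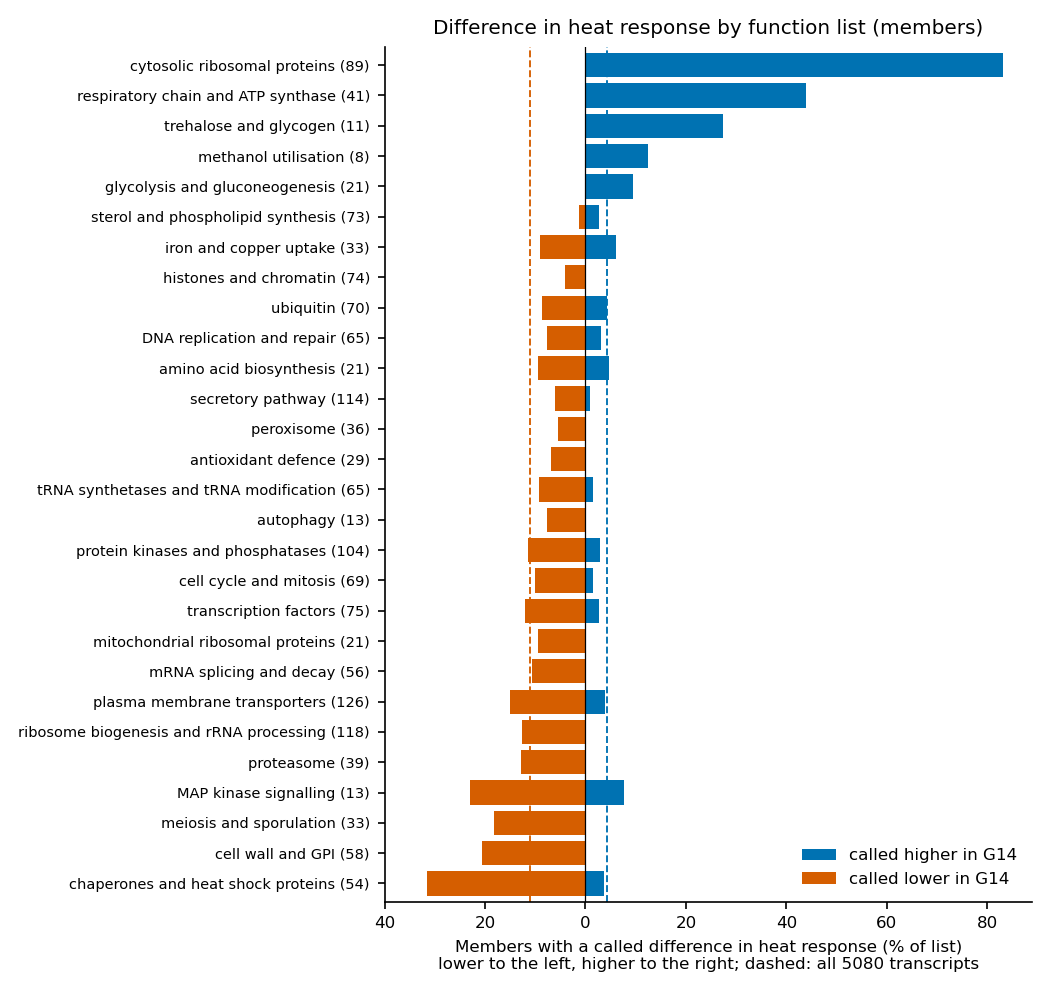
Percentage of each list's members whose difference in heat response was called lower in G14 (left of 0) or higher (right of 0), with the number of members in brackets and dashed lines at the percentages over all 5080 transcripts. The cytosolic ribosomal proteins reach 83.1% higher, and the chaperones and heat shock proteins reach 31.5% lower.

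The cytosolic ribosomal proteins were the list with the largest share of called differences. Of 89 cytosolic ribosomal protein genes, which encode the protein part of the ribosome, 74 had a difference called higher in G14 (83.1%). Their median log2 response was -0.86 in G14 and -2.33 in the parent, and the median difference was 1.46. The fall was lost in 59, reduced in 15 and kept in 5. G14 itself passed the threshold for a fall in 20 and the parent in 82. In single libraries the median of the members, relative to Parent_30, was -1.33, -0.83 and -0.70 in G14_37, -0.17, -0.23 and 0.07 in G14_30, and -2.29, -2.74 and -2.05 in Parent_37. The groups at 37 °C did not overlap, and replicate 1 of G14_37 was the lowest library of its group. Without it, 79 members were called.

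The 60S protein L18 (PAS_chr1-4_0352, chr1:2058093-2058880) had the largest difference among the called members. It had 1707, 2164 and 2171 FPKM in G14_37, 2829, 2781 and 3573 FPKM in G14_30, 493, 347 and 661 FPKM in Parent_37, and 2759, 2742 and 3075 FPKM in Parent_30. The 2 groups at 30 °C overlapped, G14_37 stood below them, and Parent_37 lay at the bottom. L18 responded by -0.60 in G14 and -2.56 in the parent, a difference of 1.96 ± 0.31 (adjusted p = 0.00097). The 15 reduced members fell in both strains with a called difference, among them the acidic protein P0 of the ribosomal stalk (PAS_chr1-3_0068), with log2 responses of -1.15 in G14 and -2.91 in the parent. The protein L22 (PAS_chr4_0041) kept its fall, with -1.31 in G14 and -1.36 in the parent.

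Genes that build ribosomes did not follow the genes of ribosomal proteins. Of 118 genes of ribosome biogenesis and rRNA processing, 15 were called lower (12.7%), and the median difference was -0.25. Among the called members, an ABC-family ATPase needed for both subunits (PAS_chr2-1_0011, chr2:19388-21388) had 17.8 FPKM in G14_37, 29.5 FPKM in G14_30, 149 FPKM in Parent_37 and 25.6 FPKM in Parent_30 as group means. Its difference was -3.19 ± 0.31 (adjusted p = 4.3e-05). A protein that processes 20S pre-rRNA in the cytoplasm (PAS_chr1-4_0506, chr1:2323529-2325832) had 25.6 FPKM in G14_37, 50.8 FPKM in G14_30, 303 FPKM in Parent_37 and 74.3 FPKM in Parent_30, with a difference of -2.93 ± 0.32 (adjusted p = 8.9e-05). In both genes only Parent_37 stood high. Under limma voom 9 members were called lower, and 11 after scaling to the same sum. Of 65 genes of tRNA charging and modification, 6 were called lower and 1 higher, led by the export component above and a tRNA methyltransferase of modified uridines (PAS_chr2-1_0406) at -2.72 ± 0.24 (adjusted p = 2.3e-05). Of 21 mitochondrial ribosomal protein genes 2 were called lower, a small subunit protein (PAS_chr2-1_0217) at -1.55 ± 0.31 (adjusted p = 0.0035) and the ribosome recycling factor (PAS_chr4_0253) at -1.10 ± 0.18 (adjusted p = 0.00098). The recycling factor was not called without replicate 3 of G14_37.

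**Figure D4:**
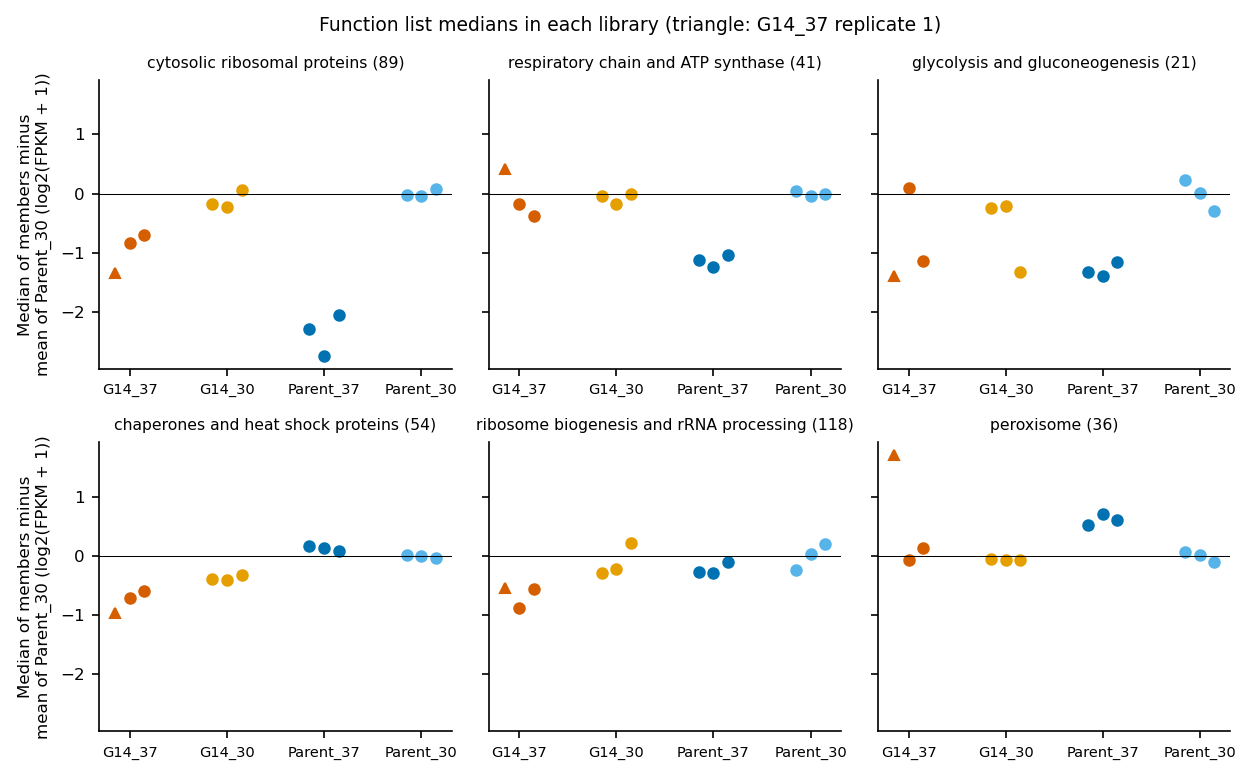
Median over the members of 6 lists in each library, relative to the mean of Parent_30, in log2(FPKM + 1), with replicate 1 of G14_37 as a triangle. The ribosomal protein medians lie at -2.74 to -2.05 in Parent_37 and at -1.33 to -0.70 in G14_37, and the peroxisome median of replicate 1 of G14_37, 1.70, stands apart from the other 2 libraries of its group.

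Protein folding was the function with the largest share of lower calls. Of 54 chaperone and heat shock genes 17 were called lower (31.5%) and 2 higher, while the median log2 difference of the list was -0.16 and 24 of the 54 differences were above 0. Of those 54, the parent's rise was lost in 10, reversed in 2 and kept in 1, and a fall was gained by G14 in 2. The strains already differed in this list at 30 °C. There 16 of the 54 members were called lower in G14_30 than in Parent_30, against 228 of all 5080 transcripts (4.49%). At 37 °C 20 of the 54 were called lower in G14_37 than in Parent_37, against 725 of all 5080 transcripts (14.3%). Library medians relative to Parent_30 were -0.97, -0.71 and -0.59 in G14_37, -0.39, -0.41 and -0.31 in G14_30, and 0.16, 0.13 and 0.08 in Parent_37. The medians of the 3 groups did not overlap. Without replicate 1 of G14_37, 16 members were called lower.

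The ATPase of protein folding and the stress response (PAS_chr3_0230, chr3:463134-465107, SSA3 of the study) had 1559, 2686 and 2367 FPKM in G14_37, 3485, 3837 and 2496 FPKM in G14_30, 22165, 22102 and 19128 FPKM in Parent_37, and 8390, 8099 and 7179.6 FPKM in Parent_30. Its rise in the parent was lost, with responses of -0.58 in G14 and 1.42 in the parent, a difference of -2.00 ± 0.34 (adjusted p = 0.0013), and G14_37 and G14_30 overlapped. The second Hsp70-type ATPase (PAS_chr4_0552, chr4:1081350-1083287, SSA1 of the study) had 217, 1215 and 1987 FPKM in G14_37, 3340, 3036 and 3521 FPKM in G14_30, 7484, 7095 and 7693 FPKM in Parent_37, and 6223, 6275 and 5868 FPKM in Parent_30. Replicate 1 of G14_37 lay far below its group, and the difference of -2.30 ± 0.85 (adjusted p = 0.056) was not called, while without that library it was, at -1.36 (adjusted p = 0.0016). These 2 genes are close relatives, so fragments could be shared between them. The gene described as Hsp90 (PAS_chr1-4_0130, chr1:1644458-1646578), the chaperone of kinases and receptors, had 811, 2116 and 2745 FPKM in G14_37, 3346, 3488 and 3454 FPKM in G14_30, 19192, 17714 and 15510 FPKM in Parent_37, and 9104, 8888 and 8108 FPKM in Parent_30. Hsp90 stood at the edge of the class, since the parent's response was 1.0021 and G14's, at -1.03, did not reach an adjusted p of 0.05. Its difference was -2.03 ± 0.51 (adjusted p = 0.011) and -1.51 without replicate 1 of G14_37.

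Several helpers of Hsp90 and Hsp70 lost their rise. An essential Hsp90 co-chaperone (PAS_chr2-1_0323, chr2:604352-604924) had 112 FPKM in G14_37, 74.1 FPKM in G14_30, 2128 FPKM in Parent_37 and 347 FPKM in Parent_30, and the difference was -2.03 ± 0.32 (adjusted p = 0.00087). The activator of the Hsp90 ATPase (PAS_chr3_0170, chr3:349336-349838) had 686 FPKM in G14_37, 1211 FPKM in G14_30, 9887 FPKM in Parent_37 and 4466 FPKM in Parent_30, with a difference of -2.01 ± 0.29 (adjusted p = 0.00052). Both co-chaperones were lower in G14 at 30 °C too. The co-chaperone that links Hsp90 to Hsp70 (PAS_chr2-1_0518, chr2:954655-956373) had a difference of -2.08 ± 0.35 (adjusted p = 0.0012). The protein that cooperates with Hsp40 and Hsp70 (PAS_chr1-3_0102, chr1:194413-197124) had -1.76 ± 0.32 (adjusted p = 0.0019). In mitochondria, the co-chaperone of the Hsp70 Ssc1p (PAS_chr2-2_0323, chr2:1770722-1772200) had 193 FPKM in G14_37, 228 FPKM in G14_30, 2976 FPKM in Parent_37 and 969.6 FPKM in Parent_30 and a difference of -1.88 ± 0.24 (adjusted p = 0.00025). A rise in both strains was seen in a probable Hsp40 co-chaperone (PAS_chr4_0051), at 1.89 in G14 and 1.605 in the parent. The cytoplasmic chaperone that sits on ribosomes (PAS_chr3_0731) went the way of the ribosomal proteins, with log2 responses of -0.86 in G14 and -2.23 in the parent, a difference of 1.37 ± 0.26 (adjusted p = 0.0026).

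The study lists 11 heat shock genes for their possible part in thermotolerance, as it does genes of ubiquitin, antioxidant defence and transcription factors, and whether values in these samples bore on the choice is not stated. Of these 11, 9 had a difference called lower, with 7 lost and 2 reversed. Their median response was -0.86 in G14 and 1.15 in the parent. The exceptions were SSA1 and the plasma membrane protein of desiccation tolerance (PAS_chr4_0627, chr4:1220958-1221311), which rose in both strains by 1.05 in G14 and 2.04 in the parent and whose difference of -0.99 ± 0.26 (adjusted p = 0.012) lay just outside the threshold of 1 (-1.08 and called without replicate 1 of G14_37). For some of these genes the study's symbols do not match the deposited descriptions, for example HSP104 for the gene described as Hsp90, so identifiers and descriptions are used here.

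In protein breakdown the differences were few. Of 39 proteasome genes 5 were called lower (12.8%) while the list median was 0.18, and 30 of the 39 differences were above 0. The members called were a transcription factor of proteasome genes (PAS_chr3_0689, chr3:1312982-1314370) at -1.60 ± 0.16 (adjusted p = 5.5e-05), a large proteasome component (PAS_chr4_0761) at -1.63 ± 0.25 (adjusted p = 0.00066), a homologue of a proteasome modulator subunit (PAS_chr2-1_0392) at -1.50 ± 0.16 (adjusted p = 8.6e-05), and the alpha 4 and alpha 2 subunits (PAS_chr3_0450 and PAS_chr2-1_0188) at -1.49 and -1.11. Of 70 ubiquitin genes 6 were called lower and 3 higher. The ubiquitin gene (PAS_chr4_0762, chr4:1448612-1449544, UBI4 of the study) had 991, 1256 and 1432 FPKM in G14_37, 1054, 1089 and 979.7 FPKM in G14_30, 7516, 6575 and 6113 FPKM in Parent_37, and 2619.5, 2509.5 and 2438 FPKM in Parent_30. It rose without overlap in the parent, the G14 groups overlapped, and the difference was -1.19 ± 0.23 (adjusted p = 0.0026). Ubiquitin is encoded in near-identical repeats in several genes, so the share of this gene is uncertain.

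Of the study's own 7 ubiquitin genes the parent's response was called in 7 and the difference in 3. The remaining 2 were a component of the Rsp5p ligase (PAS_chr2-2_0022) at -1.93 ± 0.15 (adjusted p = 1.4e-05) and a ubiquitin protease (PAS_chr3_0117) at -2.10 ± 0.15 (adjusted p = 1.1e-05). Without replicate 1 of G14_37 a vacuolar ligase (PAS_chr1-1_0290) at -1.63 and a ligase named HRD1-2 by the study (PAS_chr4_0444) at -1.07 were called as well. In autophagy, the delivery of cell parts to the vacuole, 1 of 13 genes was called, the kinase of vesicle formation (PAS_chr2-1_0641, chr2:1207062-1209452), which had 54.9 FPKM in G14_37, 50.9 FPKM in G14_30, 312 FPKM in Parent_37 and 94.1 FPKM in Parent_30 and a difference of -1.64 ± 0.24 (adjusted p = 0.00054).

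In energy metabolism the called differences were higher in G14. Of 41 genes of the respiratory chain and ATP synthase, the machinery that makes ATP in mitochondria, 18 were called higher (43.9%), all of them lost falls. The median response was -0.11 in G14 and -1.16 in the parent. Subunit IV of cytochrome c oxidase (PAS_chr2-1_0361, chr2:668216-668889), the last enzyme of the chain, had 1648, 1517 and 729.9 FPKM in G14_37, 1292, 1384 and 1025 FPKM in G14_30, 222, 188 and 290.1 FPKM in Parent_37, and 1058, 988 and 917 FPKM in Parent_30. Parent_37 lay below every other library and the other 3 groups overlapped. Its log2 response was 0.00 in G14 and -2.10 in the parent, a difference of 2.10 ± 0.40 (adjusted p = 0.0026). The gamma subunit of the ATP synthase (PAS_chr1-4_0465, chr1:2262569-2263499) had 1168, 649 and 562 FPKM in G14_37, 868, 789.6 and 913 FPKM in G14_30, 235, 198 and 271 FPKM in Parent_37, and 964, 916 and 977 FPKM in Parent_30. Here too Parent_37 alone stood low, and the gamma subunit responded by -0.18 in G14 and -2.03 in the parent, a difference of 1.84 ± 0.33 (adjusted p = 0.0018). The called members came from the ATP synthase, the cytochrome bc1 complex and cytochrome c oxidase. The library medians of G14_37 were 0.41, -0.17 and -0.38, with replicate 1 the highest, and without it 17 members were called.

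Glycolysis and gluconeogenesis had a median difference of 1.36 over 21 genes, but only the kinase and mutase described above were called. Its G14 libraries were spread, with medians of -1.39, 0.09 and -1.14 in G14_37 and -0.25, -0.21 and -1.33 in G14_30, while Parent_37 lay at -1.33, -1.39 and -1.15. Without replicate 1 of G14_37, 8 of the 21 were called higher, and with library weights 10. Pyruvate kinase (PAS_chr2-1_0769), the last enzyme of the pathway, had responses of -0.69 in G14 and -2.46 in the parent, with a difference of 1.77 ± 1.11 (adjusted p = 0.24), or 2.85 (adjusted p = 0.0055) without that library. Enolase (PAS_chr3_0082) had 1.44 ± 0.99 (adjusted p = 0.28), or 2.13 (adjusted p = 0.063) without it.

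Storage carbohydrates had 3 of 11 genes called higher. The initiator of glycogen synthesis (PAS_chr4_0847, chr4:1592377-1593606) had 218, 224 and 127 FPKM in G14_37, 165, 155 and 95.9 FPKM in G14_30, 37.0, 35.4 and 40.9 FPKM in Parent_37, and 118, 94.5 and 85.1 FPKM in Parent_30. Parent_37 was the lowest group without overlap, and the log2 response was 0.44 in G14 and -1.36 in the parent, a difference of 1.80 ± 0.35 (adjusted p = 0.0029). Glycogen synthase (PAS_chr3_0781) had a difference of 1.69 ± 0.54 (adjusted p = 0.032), a call that was lost in 7 of the 12 fits with a library left out, none of them a G14_37 library. A regulatory subunit of trehalose synthesis (PAS_chr2-1_0739) had 1.09 ± 0.27 (adjusted p = 0.011). Of 8 genes of methanol utilisation 1 was called, an acyltransferase of glycerol and dihydroxyacetone phosphates (PAS_chr1-3_0081) at 1.35 ± 0.37 (adjusted p = 0.016), and it was not called without replicate 1 of G14_37. Alcohol oxidase (PAS_chr4_0821), the first enzyme of methanol use, had responses of 1.53 in G14 and 1.59 in the parent.

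Peroxisomal and antioxidant genes had few called differences. Of 36 peroxisome genes 2 were called lower, and 7 without replicate 1 of G14_37. In that library the median of the list was 1.70 above Parent_30, against -0.06 and 0.14 in replicates 2 and 3, -0.07 to -0.05 in G14_30 and 0.52 to 0.71 in Parent_37. The called genes were a peroxisomal membrane peroxin (PAS_chr3_0874, chr3:1706282-1707823), a protein that builds the organelle, at -1.76 ± 0.45 (adjusted p = 0.011), and an enzyme of fatty acid beta-oxidation (PAS_chr1-3_0016) at -1.17 ± 0.21 (adjusted p = 0.0021), which was not called without replicate 2 of G14_37. Catalase A (PAS_chr2-2_0131, chr2:2139070-2140602), which breaks down hydrogen peroxide, had 1959.5, 264 and 297 FPKM in G14_37, 98.8, 97.3 and 115 FPKM in G14_30, 261, 339 and 197 FPKM in Parent_37, and 72.02, 70.1 and 60.7 FPKM in Parent_30. Replicate 1 of G14_37 lay far above its group, both strains rose without overlap, and the response was kept, at 2.36 in G14 and 1.93 in the parent. The difference for catalase was 0.44 with an interval of -1.42 to 2.29, and -0.50 without that library.

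The study's own 9 peroxisome genes, catalase among them and chosen on these samples, had log2 differences from -0.64 to 1.10, and the lowest adjusted p was 0.064, for D-aspartate oxidase (PAS_chr3_0406). Without replicate 1 of G14_37 a subunit of a peroxisomal ATP-binding cassette transporter (PAS_chr2-2_0272), whose difference was -0.33 with all libraries, was called lower, at -1.24 (adjusted p = 0.0017). G14's called rises in a peroxisomal dienoyl-CoA reductase (PAS_chr3_0975) and an import peroxin (PAS_chr4_0794) were lost without that library. Of 29 genes of antioxidant defence 2 were called lower and 0 higher, 3 and 1 without replicate 1 of G14_37, and 2 and 3 by limma voom. In the study's own list of 7 the difference was called lower in 3. The cytosolic superoxide dismutase (PAS_chr4_0786, chr4:1490488-1490952), which removes superoxide, had 1024 FPKM in G14_37, 967 FPKM in G14_30, 5253 FPKM in Parent_37 and 1588 FPKM in Parent_30 and a difference of -1.68 ± 0.32 (adjusted p = 0.0025). The thioredoxin peroxidase (PAS_chr2-2_0220, chr2:1978382-1978969) had 1626 FPKM in G14_37, 2352 FPKM in G14_30, 8604 FPKM in Parent_37 and 3699 FPKM in Parent_30 and a difference of -1.78 ± 0.35 (adjusted p = 0.0031). The gene the study calls AHP1 (PAS_chr1-4_0659, chr1:1723815-1724327) had a difference of -2.56 ± 0.28 (adjusted p = 8.7e-05). The mitochondrial superoxide dismutase (PAS_chr1-4_0071) had 0.49 ± 0.16 (adjusted p = 0.036) and the mitochondrial peroxiredoxin (PAS_chr3_0906) 0.65 ± 0.13 (adjusted p = 0.0037), both with the opposite sign and under the threshold of size.

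Uptake genes went in several ways. Of 33 iron and copper genes 3 were called lower, 2 higher, and 4 were kept, and limma voom called 2 lower and 4 higher. Siderophore transporters of the ARN family lost a rise. The first (PAS_chr3_0315, chr3:621802-623726) had 4.38, 2.56 and 2.78 FPKM in G14_37, 2.37, 2.18 and 2.85 FPKM in G14_30, 67.2, 102 and 67.2 FPKM in Parent_37, and 9.66, 8.34 and 7.88 FPKM in Parent_30. Only Parent_37 lay above 9.66 FPKM, and the log2 response was 0.27 in G14 and 3.03 in the parent, a difference of -2.76 ± 0.29 (adjusted p = 6.6e-05). The second (PAS_chr2-1_0012) had a difference of -2.10 ± 0.23 (adjusted p = 9.9e-05). The high-affinity copper transporter (PAS_chr4_0181) lost a fall, at 1.495 ± 0.30 (adjusted p = 0.0033). Of 126 plasma membrane transporters 19 were called lower (15.1%) and 5 higher, and 29 and 5 without replicate 1 of G14_37. The high-affinity zinc transporter (PAS_chr3_0516, chr3:989382-990959) had 2.01 FPKM in G14_37, 2.81 FPKM in G14_30, 25.2 FPKM in Parent_37 and 3.22 FPKM in Parent_30, with a difference of -2.97 ± 0.34 (adjusted p = 0.00013). In amino acid biosynthesis, with 21 genes, histidinolphosphatase (PAS_chr1-1_0397) had -1.43 ± 0.21 (adjusted p = 0.00054) and beta-isopropylmalate dehydrogenase of leucine synthesis (PAS_chr3_0039) 1.31 ± 0.19 (adjusted p = 0.00049).

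Of 58 cell wall and GPI genes 12 were called lower (20.7%), 7 of them lost rises. A putative chitin transglycosidase (PAS_chr4_0559, chr4:1093472-1094881), which links chitin to the wall, had 553 FPKM in G14_37, 921 FPKM in G14_30, 2405 FPKM in Parent_37 and 1038 FPKM in Parent_30, and the difference was -2.00 ± 0.30 (adjusted p = 0.00064). A GPI-anchored aspartyl protease (PAS_chr1-1_0379, chr1:1264858-1266752) had 47.5 FPKM in G14_37, 43.5 FPKM in G14_30, 105 FPKM in Parent_37 and 23.7 FPKM in Parent_30 and -1.99 ± 0.16 (adjusted p = 1.4e-05). A catalytic subunit of glucan synthase (PAS_chr1-3_0225) had -1.66 ± 0.26 (adjusted p = 0.00078) and chitin synthase I (PAS_chr1-1_0393) -1.53 ± 0.15 (adjusted p = 4.4e-05). Of 114 genes of the secretory pathway 7 were called lower (6.14%) and 1 higher, while limma voom called 6 lower and 8 higher. The Golgi guanosine diphosphatase (PAS_chr4_0021, chr4:46215-47867), which supports glycosylation there, had 139 FPKM in G14_37, 151 FPKM in G14_30, 1335 FPKM in Parent_37 and 319.6 FPKM in Parent_30 and -2.19 ± 0.29 (adjusted p = 0.0003). Of 73 sterol and phospholipid genes 2 were called higher and 1 lower, and 2 and 7 without replicate 1 of G14_37. A sphinganine hydroxylase of sphingolipid synthesis (PAS_chr3_0425) had 2.03 ± 0.59 (adjusted p = 0.022), not called without replicate 1 of Parent_30 or replicate 2 of Parent_37, and a lysophospholipid esterase (PAS_chr1-1_0009) had -2.00 ± 0.20 (adjusted p = 5.5e-05).

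Among regulators, the heat shock transcription factor (PAS_chr2-1_0026, chr2:49531-51141, HSF1 of the study) had 85.6, 78.3 and 85.7 FPKM in G14_37, 73.8, 67.1 and 66.4 FPKM in G14_30, 94.8, 77.9 and 91.7 FPKM in Parent_37, and 63.8, 75.0 and 71.8 FPKM in Parent_30. The libraries at 37 °C lay above those at 30 °C, and the strains overlapped at each temperature. The factor's responses were 0.26 in G14 and 0.32 in the parent, and the difference of -0.06 had a 95% interval of -0.37 to 0.26. The stress activator related to Msn2p (PAS_chr2-1_0723) rose in both strains by 1.25 in G14 and 1.13 in the parent and was kept, with a difference of 0.13, but without replicate 1 of G14_37 its response in G14 was 0.82 and no longer called. Of the study's 6 transcription factors only OPY2 (PAS_chr3_0637, chr3:1211716-1212969, described as hypothetical) was called, at -1.24 ± 0.15 (adjusted p = 0.00017). In the list of 75 transcription factors 9 were called lower (12%) and 2 higher, and 7 and 6 by limma voom. A regulator of nitrogen catabolite repression (PAS_chr2-1_0490, chr2:901082-901777) had 571 FPKM in G14_37, 813 FPKM in G14_30, 11053 FPKM in Parent_37 and 3799 FPKM in Parent_30, a lost rise with a difference of -2.07 ± 0.26 (adjusted p = 0.00022).

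Of 104 protein kinases and phosphatases 12 were called lower (11.5%) and 3 higher, all but 1 of the 15 being lost responses, and limma voom called 12 and 8. In the 13 genes of MAP kinase signalling 3 were called lower and 1 higher. Beside the kinase above, a phosphatase that inactivates MAP kinases (PAS_chr2-1_0203) had -1.60 ± 0.23 (adjusted p = 0.00053) and a MAP kinase kinase of the protein kinase C pathway (PAS_chr1-4_0271) -1.30 ± 0.15 (adjusted p = 0.00014). The MAP kinase kinase of the osmosensing cascade (PAS_chr1-1_0105) had the opposite sign, at 1.49 ± 0.44 (adjusted p = 0.024). Of 33 genes of meiosis and sporulation 6 were called lower (18.2%), among them 2 of mismatch repair and an acetate transporter. The kinase that activates meiosis (PAS_chr1-3_0041, chr1:73492-75627) had 5.51 FPKM in G14_37, 1.91 FPKM in G14_30, 43.4 FPKM in Parent_37 and 4.44 FPKM in Parent_30, with a difference of -2.02 ± 0.47 (adjusted p = 0.0075). A spore wall protein (PAS_chr4_0560) had -1.57 ± 0.17 (adjusted p = 7.1e-05).

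The lists of the cell cycle, DNA replication and repair, chromatin, and mRNA splicing and decay had shares of lower calls under the 11.1% over all transcripts. Those of the cell cycle (10.1%) and of splicing and decay (10.7%) were close to it. Of 69 cell cycle genes 7 were called lower and 1 higher, and 4 and 3 by limma voom, with a kinetochore component (PAS_chr3_0708) at -1.77 ± 0.22 (adjusted p = 0.00019) and a cyclin-like component of RNA polymerase II (PAS_chr2-2_0194) at -1.54 ± 0.18 (adjusted p = 0.00014). Of 65 genes of DNA replication and repair 5 were called lower and 2 higher. The mitochondrial DNA replication protein (PAS_FragB_0014) had 1.53 ± 0.28 (adjusted p = 0.0019) and a mismatch repair ATPase (PAS_chr4_0124) -1.50 ± 0.22 (adjusted p = 0.00061). Of 74 histone and chromatin genes 3 were called lower, among them a histone deacetylase (PAS_chr2-2_0049) at -1.76 ± 0.20 (adjusted p = 0.00013) and a histone acetyltransferase (PAS_chr3_0228) at -1.45 ± 0.15 (adjusted p = 6.0e-05), and 4 further ones were called higher without replicate 1 of G14_37. Of 56 genes of mRNA splicing and decay 6 were called lower. The spliceosome component PAS_chr4_0020, chr4:45327-46088 had 30.6 FPKM in G14_37, 23.4 FPKM in G14_30, 1025 FPKM in Parent_37 and 214 FPKM in Parent_30, so that it was low in G14 at both temperatures, with a difference of -1.88 ± 0.20 (adjusted p = 8.6e-05). It lies next to the gene of the Golgi enzyme above, and since the sources used here do not say whether counting used the strand, fragments of such neighbours may not be fully separated. A U1 snRNP protein (PAS_chr4_0805) had -1.95 ± 0.18 (adjusted p = 3.1e-05).

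The threshold of 1 on the log2 scale divides a continuous range. Just inside it lay a chitin deacetylase (PAS_chr1-1_0103) with a difference of -1.0042 and a zinc-finger protein (PAS_chr1-3_0170) with -1.0013. Just outside it lay a topoisomerase (PAS_chr1-1_0242) with -0.9976 and the desiccation protein (PAS_chr4_0627) with -0.9935. On the positive side a hypothetical protein (PAS_chr4_0616) lay inside at 1.0018 and a putative transcription factor (PAS_FragB_0066) outside at 0.9864.

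**Figure D5:**
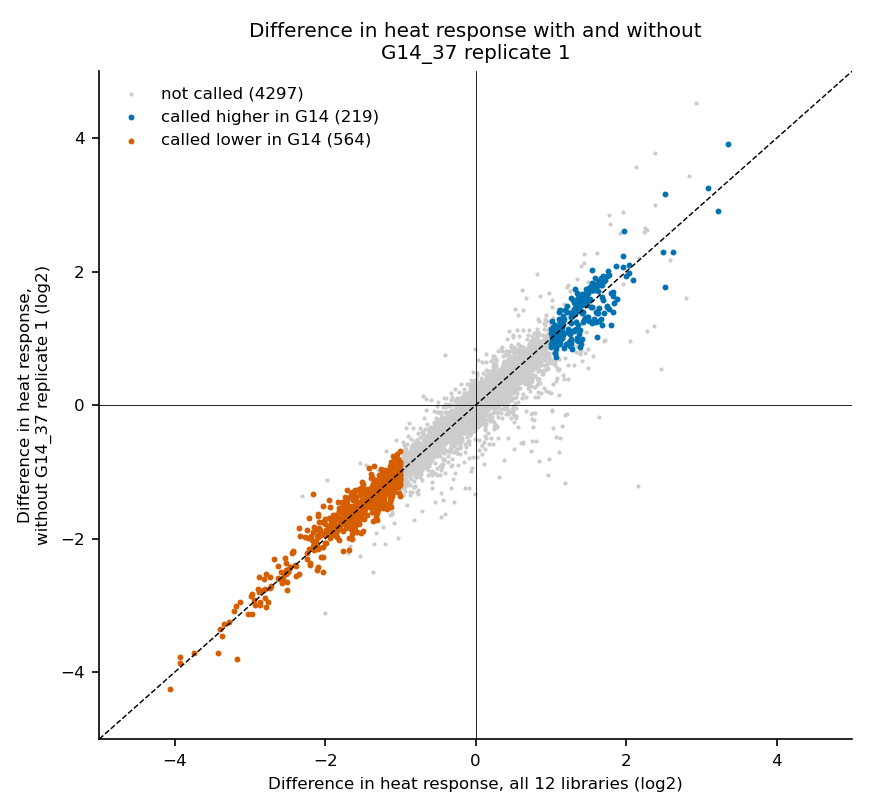
Difference in heat response of each transcript from all 12 libraries (x axis) and without replicate 1 of G14_37 (y axis), in log2, with the 219 transcripts called higher and the 564 called lower coloured. The called transcripts lie near the dashed line of equal values, and the transcripts far from it were mostly not called.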

How the data were processed

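RNA of 12 cultures was sequenced as paired ends with NEBNext Ultra libraries on a NovaSeq. Per the labels and the study's methods, the authors mapped reads with HISAT2 2.0.5, counted them per gene with featureCounts 1.5.0-p3 on the gene models of PICHIAGENOME, and deposited FPKM values. CASAVA was also named in the submitters' processing notes. Neither the name of the genome build nor the use of strand in counting is stated by the sources used here. Coordinates and gene lengths are those of the deposited table, which holds no columns of comparisons, and the separate list of assembled transcripts was not used.

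All tests were made on log2(FPKM + 1) in limma 3.58.1 (R 4.3.3), with 4 group means over 12 libraries, an expression trend and Benjamini-Hochberg adjustment over 5080 transcripts. The residual degrees of freedom were 8. A minimum mean of 1 FPKM removed no transcript. This replaces the count model of the study, since the table holds FPKM. The script was tested on simulated data. FPKM multiplied by gene length gave whole fragments within 0.05 in every library, and these recovered fragments entered an alternative. Tables came from pandas 2.3.3 and numpy 2.4.6, and figures from matplotlib 3.10.9, under Python 3.11.15.

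The members and lists were chosen with earlier results of these data known. Function lists were matched by words in the gene descriptions. Named by rule were, among described genes whose groups did not overlap in the response that defines the class, the 6 lost genes with the largest rise and fall in the parent, up to 6 reversed and 6 gained per direction by size of the difference, 4 kept per direction, the 5 largest and smallest differences, the study's own lists, and 2 called members per function list. Alternatives changed the pseudocount, the filter, the scaling, the library weights, the test and the call rule, used the replicate number as a block, and left out each library in turn. Counts of list members without replicate 1 of G14_37 were added after the data were seen.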

Additional observations from a re-analysis of the deposited data

Results flagged for a closer look

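The heat responses of the strains differed, by the test of the difference itself in limma, for 219 transcripts higher and 564 lower in G14. Together these were 783 transcripts, or 15.4% of those tested. Among the 112 genes named by rule the difference was called for 79. Many of them were named because they were called, so this share is set by the naming and is no result. All values below are log2 differences in heat response, G14 minus parent, and no explanation of them was tested.

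In signalling and regulation the values were -3.93 for the MAP kinase PAS_chr3_0895, -3.13 for the glucose-sensing kinase PAS_chr3_0873, -1.60 for the MAP kinase phosphatase PAS_chr2-1_0203, -2.07 for the nitrogen regulator PAS_chr2-1_0490, -2.73 for the bZIP factor PAS_chr1-1_0381, -1.54 for the pheromone response factor PAS_chr4_0468 and -1.24 for PAS_chr3_0637. The gene placed in signalling only by its description as a G-protein subunit, PAS_chr1-4_0063, had 1.70. The mating, meiosis and chromatin genes had -3.92 for the ALPHA2 copy PAS_chr4_0878, -2.02 for the meiotic kinase PAS_chr1-3_0041, -1.57 for PAS_chr4_0560, -1.77 for PAS_chr3_0708, -1.54 for PAS_chr2-2_0194, 1.53 for PAS_FragB_0014, -1.50 for PAS_chr4_0124, -1.76 for PAS_chr2-2_0049, -1.45 for PAS_chr3_0228 and -2.88 for the SET domain gene PAS_chr2-1_0517.

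In translation and RNA processing they were 1.96 for L18 (PAS_chr1-4_0352), 1.68 for L5 (PAS_chr1-1_0345), 1.87 for S26 (PAS_chr2-1_0362), 1.59 for L15 (PAS_chr2-1_0658), -1.55 for PAS_chr2-1_0217, -1.10 for PAS_chr4_0253, -3.19 for PAS_chr2-1_0011, -2.93 for PAS_chr1-4_0506, -3.34 for the tRNA export component PAS_chr4_0200, -2.72 for PAS_chr2-1_0406, -1.95 for PAS_chr4_0805, -1.88 for PAS_chr4_0020 and -1.38 for the importin PAS_chr1-3_0237.

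In protein folding they were -2.98 for the exchange factor PAS_chr2-1_0042, -2.33 for the ER ATPase PAS_chr2-1_0140, -2.43 for calnexin PAS_chr2-1_0322, -2.34 for the cyclophilin PAS_chr3_0567, -2.24 for PAS_chr2-2_0066, -2.00 for PAS_chr3_0230, -2.03 for PAS_chr2-1_0323, -2.01 for PAS_chr3_0170, -1.88 for PAS_chr2-2_0323, -1.76 for PAS_chr1-3_0102, -2.03 for PAS_chr1-4_0130 and -2.08 for PAS_chr2-1_0518. Genes of protein breakdown had -1.19 for ubiquitin PAS_chr4_0762, -1.93 for PAS_chr2-2_0022, -2.10 for PAS_chr3_0117, -1.63 for PAS_chr4_0761, -1.60 for PAS_chr3_0689 and -1.64 for PAS_chr2-1_0641.

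In metabolism they were 3.35 for 3-phosphoglycerate kinase PAS_chr1-4_0292, 2.51 for the mutase PAS_chr3_0826, 3.09 for the alcohol dehydrogenase PAS_chr2-1_0472, 2.10 for PAS_chr2-1_0361, 1.84 for PAS_chr1-4_0465, 1.35 for PAS_chr1-3_0081, 1.80 for PAS_chr4_0847, 1.69 for PAS_chr3_0781, -2.61 for biotin synthase PAS_chr1-3_0052, -1.43 for PAS_chr1-1_0397, 1.31 for PAS_chr3_0039, 2.03 for PAS_chr3_0425 and -2.00 for PAS_chr1-1_0009. Peroxisomal and antioxidant genes had -1.76 for PAS_chr3_0874, -1.17 for PAS_chr1-3_0016, -1.68 for PAS_chr4_0786, -1.78 for PAS_chr2-2_0220 and -2.56 for PAS_chr1-4_0659.

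In uptake, the cell surface and secretion they were 3.22 for the amino acid permease PAS_chr1-1_0030, -2.76 for PAS_chr3_0315, -2.10 for PAS_chr2-1_0012, -2.97 for the zinc transporter PAS_chr3_0516, -1.74 for the heme protein PAS_chr2-1_0270, -2.00 for PAS_chr4_0559, -1.99 for PAS_chr1-1_0379, -2.19 for PAS_chr4_0021 and -3.02 for the Sec4p effector PAS_chr1-4_0066. Without a description were PAS_chr1-3_0039, at -3.74, and the 2 assembled transcripts on chromosome 2, at -4.06 and -3.42.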

How the results depend on the processing

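Adding 0.1, not 1, before the logarithm, or leaving out transcripts with a mean under 10 FPKM, kept each count within 1.5 times its value. Going without the filter and median-of-ratios scaling gave the same counts, but neither could test them. The filter had removed no transcript, and the scaling factor was 0.998593 in every library. Each library scaled to the same sum gave 136 kept responses and 240 higher and 29 lower responses of G14. The counts of 20 gained and 5 reversed did not move with it, but only 9 and 3 were the same transcripts. Library weights gave 75 higher and 42 lower responses of G14. The stricter test of limma treat, against an absolute log2 value of 1, called 1 difference higher and 113 lower, 278 responses of the parent higher and 134 lower, and 2 of G14 higher and 0 lower, so that 103 were lost, 2 kept, 0 reversed and 0 gained; at an unadjusted p under 0.05 it held 41 rises and 12 falls of G14, and plain limma called 113 and 79. Limma voom on recovered fragments, with each library scaled by its total alone, gave 375 differences higher, 3 reversed and 173 higher responses of G14. Its scaling and its test changed together and were not separated. By the adjusted p alone, 744 differences were higher and 1052 lower, with 1215 lost, 123 reversed, 556 kept and 121 gained, 1672 responses of the parent higher and 1372 lower, and 616 of G14 higher and 672 lower. Leaving out each library in turn gave 172 to 303 differences higher, 489 to 619 lower, 503 to 706 lost, 2 to 19 reversed, 55 to 151 kept, 11 to 79 gained, and 62 to 246 higher and 42 to 177 lower responses of G14; the extremes of the reversed, kept and gained counts came without replicate 1 or 3 of G14_37. The cause of these shifts was not tested.

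Among named genes the sign changed only in differences that were not called. Scaling to the same sum gave 0.039 for PAS_chr3_0648, 0.076 for PAS_chr4_0329 and 0.042 for PAS_chr2-1_0026. Library weights gave -0.15 for PAS_chr3_0251, 0.28 for PAS_chr4_0329, -0.045 for PAS_chr3_0099, -0.22 for PAS_chr2-2_0131, -0.23 for PAS_chr4_0794, -0.12 for PAS_chr4_0759 and -0.16 for PAS_chr2-1_0723. Limma voom gave 0.10 for PAS_chr3_0648, 0.21 for PAS_chr1-1_0365, 0.15 for PAS_chr4_0329 and 0.14 for PAS_chr2-1_0026. With each library left out, the difference ranged from -0.65 to 0.54 for PAS_chr3_0251, -0.46 to 0.85 for PAS_chr4_0329, -0.25 to 0.24 for PAS_chr3_0099, -0.56 to 0.58 for PAS_chr3_0648, -0.30 to 0.44 for PAS_chr2-1_0723, -0.32 to 2.86 for PAS_chr2-2_0113, -0.50 to 0.95 for PAS_chr2-2_0131, -0.37 to 0.43 for PAS_chr4_0794, -0.20 to 0.72 for PAS_chr4_0759, -1.24 to 0.23 for PAS_chr2-2_0272, -0.14 to 0.29 for PAS_chr3_0876, -0.66 to 0.16 for PAS_chr3_0779 and -0.14 to 0.0085 for PAS_chr2-1_0026.

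The replicate block gave 236 differences higher and 562 lower, with 594 lost, 5 reversed, 87 kept and 25 gained. Same-numbered libraries did not deviate together in every pair, with correlations of their deviations from -0.216 to 0.671. Differently numbered libraries had -0.635 to 0.453. Between G14_30 and Parent_30 the correlation was 0.61 for replicate 1, 0.01 for replicate 2 and 0.67 for replicate 3. The labels give only a number, and whether it stands for a shared batch was not tested.

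Depth of 13428637 fragments or more leaves a single fragment on 1 kb at 0.0822 FPKM at most, so depth bears mainly on transcripts of a few FPKM. G14 is 1 clone, so the differences are those of 1 isolate. P-values measure the spread between the replicates of this experiment, with 1 estimate per transcript shared by all 4 groups. A spread group such as G14_37 therefore also enters the error of the parent's response. For catalase the standard error was 0.59 for the response of either strain.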

Other observations

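Many of the called differences lay beside each other along the chromosomes. Of the 564 transcripts whose difference was called lower, 316 (56%) had an adjacent transcript called lower, against 694 (15.4%) of the other 4516. Of the 219 called higher, 50 (22.8%) had an adjacent transcript called higher, against 376 (7.74%) of the other 4861. Both members were called lower in 82 of 2113 adjacent pairs on the same strand (3.88%) and in 113 of 2963 on opposite strands (3.81%). The part of shared fragments between neighbours in these counts was not tested.

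The longest run of adjacent lower calls held 9 genes at chr4:1635239-1649464. It ends with the ALPHA2 copy, PAS_chr4_0878, and a further gene, and it includes a translational activator of the COX1 mRNA, PAS_chr4_0873, with a log2 difference of -2.09 ± 0.16, a subunit of the signal peptidase complex, PAS_chr4_0874, with -1.77 ± 0.24, and a mitochondrial dicarboxylate carrier, PAS_chr4_0877, with -1.22 ± 0.19. The longest run of higher calls held 3 ribosomal protein genes at chr2:887744-889353, S14 (PAS_chr2-1_0481) with 1.69 ± 0.31, S22 (PAS_chr2-1_0482) with 1.58 ± 0.40 and L39 (PAS_chr2-1_0483) with 1.19 ± 0.34. Standard errors rest on 3 libraries per group and on a spread shared by all groups.

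Of the transcripts called lower, 282 (50%) had a description of function, as had 170 (77.6%) of those called higher and 60.8% of all. The lists of function therefore cover the higher calls more fully than the lower calls.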
